A study of Mus musculus with 2 samples.

Results

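The myelin protein genes described here are Mbp, Mog, Mag, Mobp, Cnp, Mal, Cldn11, Opalin and Ermn, the 9 rows with these symbols among the 32285 genes of the deposited count tables. They were followed through oligodendrocyte stages, in cells of other types and between libraries. The study compared Fam69c KO with Fam69c WT mice, and all animals were males aged 4 months. Cortical tissue was dissociated, stained with the dead-cell dye 7-AAD and sorted, and 1 single-cell 3' library was made per genotype from pooled mice. The labels name 7 mice without saying whether that is the number per genotype, and neither the deleted segment of Fam69c nor the strain is given in the sources used here. Pool and genotype therefore cannot be told apart, and no test across animals is possible. The 95% intervals given are exact and reflect the number of UMIs or cells alone.

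Oligodendrocytes wrap axons of the central nervous system in many layers of compacted membrane. Precursors leave the cell cycle, pass through a brief newly formed stage and then turn on the proteins of the sheath. Mbp encodes myelin basic protein, which zippers the cytoplasmic faces of the membrane together. Cnp encodes a phosphodiesterase of the uncompacted cytoplasmic channels, Mag an adhesion receptor of the innermost wrap next to the axon, and Mog an immunoglobulin-domain protein of the outermost surface. Cldn11 forms the tight junctions between wraps, Mal is a proteolipid that sorts membrane to the sheath, and Mobp is a small basic protein of compact myelin. Opalin is a glycosylated membrane protein of oligodendrocytes, and Ermn (ermin) links their late-forming processes to actin.

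The 250 bases before the RefSeq start of 8 of the 9 genes were taken (GRCm38.p6, the assembly also called mm10). For Mobp and Cnp that start lies 35 bases inside the GENCODE gene bounds given below. For Mag, with 3 listed starts, the one used also lies inside them. The windows of Mag, Cnp, Mobp and Opalin are shown because they were the 4 that held a match to either motif searched, and those of Mog, Mal, Cldn11 and Ermn held none. Capitals mark CTGGCAC, a core sequence bound by the myelin regulator MYRF, and ACAAAG, a core of SOX factors such as SOX10, on either strand, where CTTTGT is the reverse complement of ACAAAG. The windows are chr7:30914864-30915113 (minus strand), chr11:100574689-100574938 (plus), chr9:120149492-120149741 (plus) and chr19:41077114-41077363 (minus).
Mag: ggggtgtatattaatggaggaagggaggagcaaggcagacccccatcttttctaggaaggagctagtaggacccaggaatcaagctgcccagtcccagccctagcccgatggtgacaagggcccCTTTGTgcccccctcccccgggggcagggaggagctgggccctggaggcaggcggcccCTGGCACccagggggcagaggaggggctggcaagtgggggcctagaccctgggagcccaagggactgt
Cnp: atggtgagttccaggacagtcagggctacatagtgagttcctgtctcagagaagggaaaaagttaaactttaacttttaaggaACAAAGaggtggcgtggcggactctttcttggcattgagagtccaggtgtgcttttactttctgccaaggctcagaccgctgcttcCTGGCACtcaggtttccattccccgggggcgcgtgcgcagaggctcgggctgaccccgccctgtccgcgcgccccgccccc
Mobp: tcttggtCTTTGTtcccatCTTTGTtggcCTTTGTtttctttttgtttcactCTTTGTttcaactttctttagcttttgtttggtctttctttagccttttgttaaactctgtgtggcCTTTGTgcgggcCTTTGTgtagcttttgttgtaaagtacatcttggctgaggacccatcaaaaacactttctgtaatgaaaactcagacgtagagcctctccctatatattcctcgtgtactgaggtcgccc
Opalin: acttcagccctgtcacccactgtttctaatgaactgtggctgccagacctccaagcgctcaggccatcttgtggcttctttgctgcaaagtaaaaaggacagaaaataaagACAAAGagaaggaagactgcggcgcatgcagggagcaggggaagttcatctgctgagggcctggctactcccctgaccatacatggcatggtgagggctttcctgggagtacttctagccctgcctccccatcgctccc
CTGGCAC stood in 2 of the 8 windows, Mag and Cnp, and in 4.14% of 27025 mouse windows of the same length. It began 68 bases before the start of Mag and 81 bases before that of Cnp. ACAAAG stood in 4 of the 8, Mag, Cnp, Mobp and Opalin, against 16.5% of all windows. Mobp carried 6 matches, all on the minus strand, and 4 or more matches were found in 6 of all 27025 windows. No match overlapped another. A match describes these letters and is no measured binding site.

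The members lay on 8 chromosomes of the mouse mm10 assembly, with gene bounds from GENCODE M21. Mog lay at chr17:37010743-37023398, Mag at chr7:30899176-30914873, Opalin at chr19:41061710-41077113, Mal at chr2:127633226-127656695 and Ermn at chr2:58045113-58052864, all on the minus strand. Mobp lay at chr9:120149707-120181484, Cnp at chr11:100574904-100591729 and Cldn11 at chr3:31149920-31164324, on the plus strand, and Mbp on the plus strand of chromosome 18. Mobp shared its strand with an overlapping gene, Gm38642, so that reads from the overlap cannot be assigned with certainty. Cnp, Ermn, Mog and Mbp overlapped Dnajc7, Galnt5, Gm22388 and Rpl21-ps8 on the opposite strand.

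The KO library held 9182 barcodes and 75473717 UMIs (unique transcript molecules), and the WT library 7150 barcodes and 57166105 UMIs. Barcodes passed with 500 genes or more and a mitochondrial share no higher than 20%, which left 7480 cells in KO and 5152 in WT. The filter took out 18.5% of KO and 27.9% of WT barcodes, and 17 barcode sequences were shared by the libraries, none of them mature oligodendrocyte-like in both. Cells were placed in 17 classes by the markers they expressed, none of which was a member, and are called "-like" for that reason. Mature oligodendrocyte-like cells numbered 760 in KO and 594 in WT, newly formed ones 26 and 17, and precursors 5 and 8. All 14 markers of the mature class, among them Ugt8a, Gjb1 and Fa2h, had UMIs in that class in both libraries. Cells were placed by these markers, and all 14 also had UMIs in astrocyte-like cells of both libraries. Their detection is therefore no separate check of the class. Astrocyte markers in mature oligodendrocyte-like cells summed to 109 CPM (UMI counts scaled to a common total per class) in KO and 82.4 CPM in WT, with all 10 of 10 detected, and a median of 1 UMI per cell in each library. Fam69c, listed under its current symbol Dipk1c, stood at 33.1 CPM in KO and 58.9 CPM in WT astrocyte-like cells. It had only 3 UMIs in KO and 6 in WT mature oligodendrocyte-like cells, and a 3' count need not fall when an upstream exon is deleted.

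The members differed in how much of their mature level newly formed cells had reached. Summed over newly formed cells, Mbp, Cnp and Cldn11 stood at 90.9% or more of it in both libraries. Mag did so only in KO, Mog was in between, and Mobp, Opalin, Mal and Ermn were low until the mature stage. Gpr17, Bmp4 and Enpp6 mark newly formed oligodendrocyte-like cells, but not every cell placed in this class had a UMI of each. Newly formed cells had a median of 5226.5 UMIs in KO and 29211 UMIs in WT. Members made up 1.98% of all UMIs of newly formed cells in KO and 1.44% in WT, against 3.06% of UMIs of mature cells in KO and 2.63% in WT. In precursor-like cells they made up 0.299% in KO and 0.353% in WT, most of it from the 2 cells of each library that also carried Bmp4 transcripts.

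Among the genes highest at that stage, Mbp stood at 8437 CPM in newly formed KO cells and 6416 CPM in newly formed WT cells, which was 164% and 129% of its level in mature cells of the same library. Every newly formed cell had at least 1 Mbp UMI. Cnp stood at 4306 CPM in KO and 3807 CPM in WT newly formed cells, 102% and 104% of its mature level. Both intervals for Cnp, 96.7% to 108% in KO and 98.8% to 109% in WT, included the mature level. Cldn11, the tight-junction claudin, stood at 3578 CPM in KO and 2518 CPM in WT newly formed cells, 106% and 90.9% of its mature level. Without the cell richest in each gene, the levels were 151% in KO and 118% in WT for Mbp, 88.7% in KO and 97.2% in WT for Cnp, and 86.6% in KO and 69.7% in WT for Cldn11. With each cell weighed the same, Cnp stood at 79.0% in KO and 104% in WT and Cldn11 at 79.2% in KO and 63.9% in WT.

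The adhesion receptor gene Mag stood at 93.4% of its mature level in newly formed KO cells and at 46.4% in newly formed WT cells, the widest gap between libraries among Mbp, Cnp, Cldn11, Mag and Mog. Its level was 2831 CPM in KO and 1267 CPM in WT, and without the richest cell of each library it stood at 72.8% in KO and 39.0% in WT. Mog reached 21.7% of its mature level in KO and 26.7% in WT newly formed cells, with overlapping intervals.

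Mobp, Opalin, Mal and Ermn, the late genes, were much lower. Opalin stood at 9.67% of its mature level in newly formed KO cells and 4.02% in WT. A single KO cell held 23 of the 29 Opalin UMIs, and without the richest cell of each library Opalin stood at 2.21% in KO and 2.59% in WT. Mobp stood at 9.16% in KO and 3.73% in WT, with 59.5% of its KO UMIs and 54.5% of its WT UMIs in 1 cell each. Mal, the sorting proteolipid, had 12 UMIs in all newly formed KO cells and 3 UMIs in all newly formed WT cells, or 0.501% and 0.127% of its mature level, and 3.12% in KO and 1.11% in WT with each cell weighed the same. Ermn had 4 UMIs in newly formed KO cells and 0 in newly formed WT cells. In WT a floor of 3 UMIs equals 7.20 CPM, against 2545 CPM in mature cells. In KO, 10 of the 12 Mal UMIs and all 4 Ermn UMIs lay in cells without a Bmp4 UMI. The Ermn UMIs came from 2 cells, each with 0 Gpr17 UMIs and 1 Enpp6 UMI. With at least 5 markers required, Mal stood at 0.169% and Ermn at 0.139% of the mature level in KO. Mbp was more than 25% above its mature level in both libraries, 1 of the 9 members, against 38.1% of genes in KO and 40% in WT. In WT that call was lost without the richest cell and with each cell weighed the same, at 118% in both cases. More than 20% below it were 5 members in KO (Mog and the 4 late genes) and 6 in WT (the same and Mag), against 33.9% of genes in KO and 32.8% in WT. The 10-fold threshold was set after seeing the data. The 4 late genes reached the minimum of 100 UMIs only through mature cells, so these counts are descriptive only. They lay past 10-fold below their mature level in both libraries, while 4.75% of 7838 genes did so in KO and 4.59% of 7824 genes in WT. In KO, Mobp was no longer past it with each cell weighed the same (13.3%), nor Opalin in cells with a Bmp4 UMI (13.5%).

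**Figure D1:**
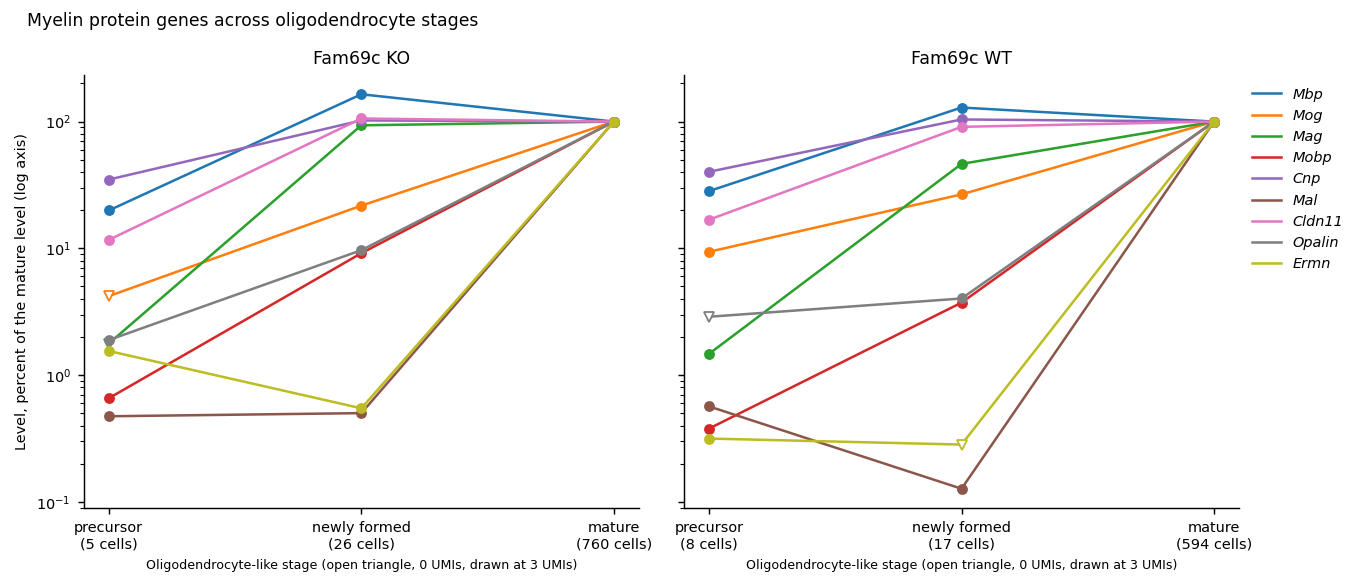
Level of each myelin protein gene (log axis) as a percent of its level in mature oligodendrocyte-like cells of the same library, in precursor-like, newly formed and mature cells of the KO library (left) and the WT library (right); open triangles mark 0 UMIs, drawn at 3 UMIs. Mbp, Cnp and Cldn11 lie between 90.9% and 164% in newly formed cells, while Mal lies at 0.501% in KO and 0.127% in WT and Ermn at 0.547% in KO and 0 in WT.

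The newly formed cells differed in Bmp4 detection, and the share with a Bmp4 UMI differed between libraries. Bmp4, a marker of the start of that stage, had a UMI in 17 of the 26 KO cells and in 16 of the 17 WT cells. Median depth was 5872 UMIs in KO cells with Bmp4, 4030 in KO cells without it and 26230.5 in WT cells with it. A shallow cell can lack a Bmp4 UMI by sampling, and the part of depth was not tested. In KO, cells without a Bmp4 UMI had 5126 CPM of Mag, and those with one had 1552 CPM. Cldn11 followed the same order in KO, at 6204 CPM in cells without Bmp4 and 2114 CPM in cells with it, and so did Mobp, at 636 CPM without and 34.5 CPM with Bmp4. Mbp, Cnp, Mal and Ermn were also higher in KO cells without Bmp4. Mog did not follow, at 256 CPM without and 291 CPM with Bmp4 in KO, with overlapping intervals. Opalin went the other way in KO, at 26.5 CPM without and 128 CPM with Bmp4. A single KO cell without Bmp4 held 296 of the 580 Mag UMIs, 336 of the 702 Cldn11 UMIs and 47 of the 72 Mobp UMIs of that subset. The single WT cell without Bmp4 had 3264 CPM of Mag and 6385 CPM of Cldn11. Within cells with a Bmp4 UMI, a split chosen after seeing the data, Mag stood at 1552 CPM in KO and 1046 CPM in WT. In the same cells Cldn11 stood at 2114 CPM in KO and 2088 CPM in WT, Mbp at 6469 CPM in KO and 6068 CPM in WT, and Cnp at 3577 CPM in KO and 3846 CPM in WT. Mobp stood at 34.5 CPM in KO and 48.0 CPM in WT there, and Opalin at 128 CPM in KO and 37.3 CPM in WT. However, 1 WT cell held all 18 of these Mobp UMIs, and 1 KO cell held 23 of the 26 Opalin UMIs.

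Between newly formed cells of the libraries, 6 members had the 100 UMIs needed for a comparison, and 4 of them (Mbp, Mag, Cldn11 and Mobp) were more than 25% higher in KO, against 17.8% of 1375 genes, and 0 were more than 20% lower, against 22.3%. The Mag ratio of KO over WT was 2.23 (2.00 to 2.49). These ratios come from 26 KO and 17 WT cells of 1 pool each, and the part of Bmp4 detection in them was not tested.

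Precursor-like cells, gated on Pdgfra, Cspg4 and other precursor markers, were too few for a comparison and are given cell by cell. Of the 5 KO cells, 3 had 0 Mbp UMIs, and the other 2 had 55 and 2. Of the 8 WT cells, 6 had 0 to 2 Mbp UMIs, and the other 2 had 21 and 148. The cells with more than 2 Mbp UMIs all carried Bmp4 transcripts too. Cnp followed the same cells, with 45 and 37 UMIs in KO and 60 and 119 UMIs in WT in the cells with Bmp4, and 0 to 2 UMIs in every other precursor-like cell.

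In mature oligodendrocyte-like cells, 8 of the 9 members were at a higher share of UMIs in KO than in WT, but the differences were small. The largest was Mal, at 7576 CPM in KO and 5676 CPM in WT, a ratio of 1.33 (1.32 to 1.35). Mobp followed at 2730 CPM in KO and 2124 CPM in WT, a ratio of 1.28 (1.26 to 1.31). These 2 of the 9 members were more than 25% higher in KO, and so were 7.14% of 9123 genes with at least 100 UMIs. In the opposite direction the same fold, a level more than 20% lower, was reached by 0 members and 19% of those genes. A 1.5-fold difference was reached by 0 members, against 1.67% of genes higher and 4.44% lower in KO. A ratio above 1 was found for 40% of all genes compared. The median over the members was 0.20 on the log2 scale, against -0.07 over all genes.

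Mog, the surface protein gene, stood at 1282 CPM in KO and 1027 CPM in WT, a ratio of 1.248, just under the threshold. Cldn11 stood at 3382 CPM in KO and 2771 CPM in WT (ratio 1.22), and Cnp at 4215 CPM in KO and 3662 CPM in WT (ratio 1.15). Opalin stood at 949 CPM in KO and 836 CPM in WT (ratio 1.14), and Mag at 3030 CPM in KO and 2733 CPM in WT (ratio 1.11). Mbp, the main protein of compaction, was nearly level, at 5135 CPM in KO and 4972 CPM in WT, a ratio of 1.03 (1.02 to 1.05). Ermn was the exception, at 2314 CPM in KO and 2545 CPM in WT, a ratio of 0.909 (0.892 to 0.927). Its ratio stayed below 1 and those of Mbp, Mog, Mag, Mobp, Cnp, Mal and Cldn11 stayed above 1 under all 11 alternative scalings, filters and gates that recomputed them. Opalin was above 1 under 10 of the 11, and its log2 ratio was 0.00 when each cell was thinned to 2000 UMIs.

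The libraries also differed by transcript length over all genes. In 10 bins of genes by longest transcript, the median log2 ratio of KO over WT was lower in each longer bin, at 0.16 for the shortest and -0.31 for the longest. The bin of Mal and Cnp (2532 to 3017 bases) had a median of -0.01, that of Mobp -0.07, that of Mbp -0.19, that of Ermn -0.11 and that of Mog and Cldn11 0.12. The log2 ratios of Mal (0.42), Mobp (0.36) and Mbp (0.05) were thus above the median of the genes of like length. So were those of Mog (0.32), Cldn11 (0.29), Cnp (0.20), Opalin (0.18) and Mag (0.15), with a bin median of -0.01 for Opalin and 0.07 for Mag. The log2 ratio of Ermn (-0.14) was close to the median of its bin. Trimmed-mean scaling shifted every log2 ratio up by 0.06, so that Mog and Cldn11 were also more than 25% higher. Mature cells had a median of 11309.5 UMIs in KO and 13841 UMIs in WT. Hemoglobin transcripts were 0.698% of UMIs of mature cells in KO and 0.836% in WT, and the median mitochondrial share was 4.65% in KO and 4.69% in WT. The part of these quantities in the ratios was not tested.

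**Figure D2:**
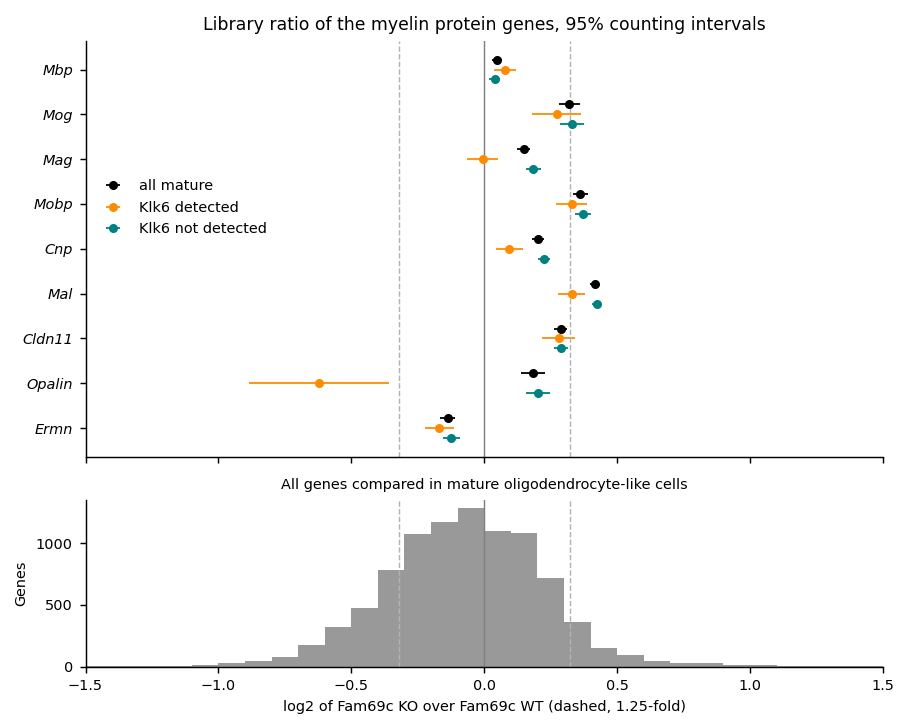
Top, log2 ratio of KO over WT for each myelin protein gene in all mature oligodendrocyte-like cells, in those with and in those without a Klk6 UMI, with 95% counting intervals; bottom, number of genes by the same ratio over the 9123 genes compared; dashed lines mark 25% higher and 20% lower. Mal at 0.42 and Mobp at 0.36 lie past the right line, Ermn at -0.14 lies left of 0, and Opalin in Klk6-detected cells lies at -0.62.

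Other genes of the sheath were compared by lists. Of 22 genes for myelin membrane and axon contact proteins, 0 were past the same fold higher in KO and 4 were past it lower, against 7.14% and 19% of all genes compared. The median log2 ratio was -0.04, against -0.07 over all genes. Cntn2 and Nfasc, adhesion molecules at and around the node of Ranvier, had ratios of 0.730 and 0.741. Gjc3, a glial connexin, had a ratio of 0.793, and Tppp, which promotes tubulin polymerization, one of 0.769. The septin gene Sept4 stood at 2008 CPM in KO and 2095 CPM in WT.

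Of 11 genes of myelin lipid synthesis, 2 were past it higher and 2 past it lower in KO, against the same 7.14% and 19%, with a median of -0.04 beside the -0.07 of all genes. Cers2 and Elovl1, which make very-long-chain ceramides and fatty acids, had ratios of 1.29 and 1.35. The desaturase genes Scd1 and Scd2 had ratios of 0.791 and 0.701, with Scd2 at 3860 CPM in KO and 5504 CPM in WT. Of the 10 oligodendrocyte transcription factor genes with enough UMIs, 0 were past it higher and 1, St18, was past it lower at a ratio of 0.769, against 7.14% and 19% of all genes, with a median of -0.06. Olig1 stood at 834 CPM in KO and 762 CPM in WT, and Zeb2 at 829 CPM in KO and 1027 CPM in WT.

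Within the mature class, cells with and without a Klk6 UMI differed in which members they expressed. Klk6 encodes a secreted protease known to mark one mature oligodendrocyte state. A Klk6 UMI was found in 117 of 760 KO cells (15.4%) and in 83 of 594 WT cells (14.0%). Cells with Klk6 were deeper, with a median of 15349 UMIs in KO and 19762 UMIs in WT, against 10897 UMIs in KO and 13550 UMIs in WT without it.

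Opalin differed most among the members, at 114 CPM in KO cells with Klk6 and 1147 CPM in KO cells without it. In WT it stood at 176 CPM with Klk6 and 997 CPM without it, so that the ratios of detected over not detected were 0.0996 in KO and 0.176 in WT. After thinning to 2000 UMIs per cell, Opalin still stood at 147 CPM with and 989 CPM without Klk6 in KO, and at 240 CPM with and 957 CPM without Klk6 in WT. Mal stood at 4027 CPM with and 8420 CPM without Klk6 in KO, and at 3204 CPM with and 6279 CPM without Klk6 in WT. Cldn11 had ratios of 0.771 in KO and 0.775 in WT. After thinning, its log2 ratio was -0.25 in KO and -0.31 in WT, less than 20% lower, whereas Mal was at -0.83 in KO and -0.80 in WT and Ermn at 0.44 in KO and 0.57 in WT. Ermn went the other way, at 2981 CPM with and 2155 CPM without Klk6 in KO, and at 3353 CPM with and 2348 CPM without Klk6 in WT. The late genes thus fell on both sides, with Opalin and Mal lower and Ermn higher in cells with Klk6.

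More than 20% lower in cells with Klk6 were 3 of the 9 members in each library (Opalin, Mal and Cldn11), against 18.5% of 7688 genes in KO and 14.5% of 7613 genes in WT. More than 25% higher was 1 of the 9, Ermn, against 15.8% of genes in KO and 18.8% in WT. Mobp was at ratios of 1.15 in KO and 1.19 in WT, and Mbp at 1.04 in KO and 1.02 in WT. The ratios of Cnp were 0.838 in KO and 0.917 in WT. Mog and Mag lay within 10% of even in both libraries. Cldn11 lost its place past that fold in both libraries after thinning and with each cell weighed the same, at log2 ratios of -0.23 in KO and -0.21 in WT in the second case. Opalin, Mal and Ermn were past it in both libraries under every setting tried.

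The ratios between libraries were also taken within each group of mature cells. Among cells with Klk6, Mobp and Mal were more than 25% higher in KO, 2 of the 9 members, against 9.29% of 4943 genes. In the same cells Opalin was more than 20% lower in KO, 1 of the 9, against 24.1% of genes, at a ratio of 0.650 (0.541 to 0.780). Among cells without Klk6, Mog, Mobp and Mal were more than 25% higher in KO, 3 of the 9, against 7.57% of 8701 genes, and 0 were more than 20% lower, against 18.4%. Opalin had a ratio of 1.15 without Klk6, but after thinning it stood at 989 CPM in KO and 957 CPM in WT there. The ratio of Mag was 0.996 (0.957 to 1.04) with Klk6 and 1.14 (1.12 to 1.16) without it, and that of Cnp 1.07 (1.03 to 1.11) with Klk6 and 1.17 (1.15 to 1.19) without it. The differences between the groups of cells were not tested.

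**Figure D3:**
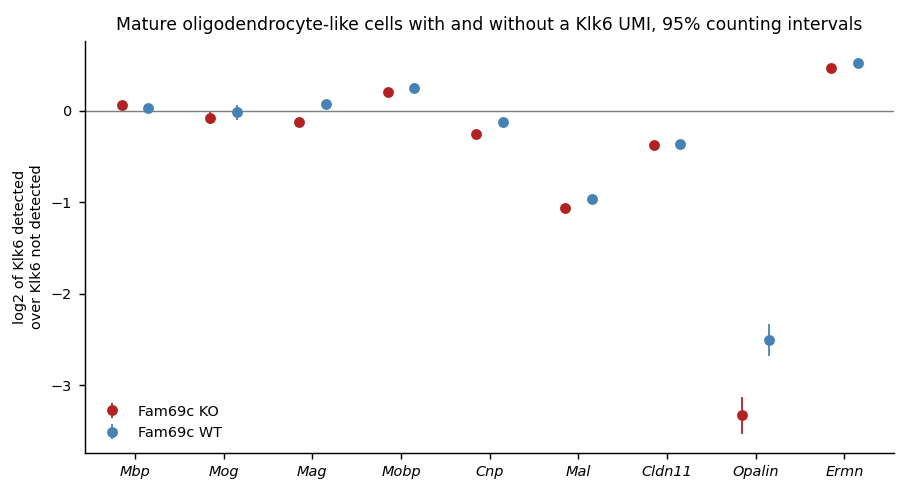
Log2 ratio of mature oligodendrocyte-like cells with a Klk6 UMI over those without one, for each myelin protein gene in the KO library (red, left) and the WT library (blue, right), with 95% counting intervals. Opalin lies at -3.33 in KO and -2.50 in WT, Mal near -1, Ermn at 0.47 in KO and 0.51 in WT, and Mbp near 0 in both.

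From cell to cell within the mature class, Mal had the highest variance over the mean among the members in both libraries. With each cell thinned to 2000 UMIs, the variance over the mean, which is 1 for pure counting noise, was 4.94 for Mal in KO and 3.42 in WT. It was 2.37 for Opalin in KO and 1.58 in WT, where Cldn11 (1.68) and Ermn (1.65) were higher. The value was 1.54 in KO and 1.57 in WT for Mbp and 1.28 in KO and 1.13 in WT for Mog. For a given relative spread this measure rises with the mean, so it does not rank the members by relative spread. Mal also had the highest mean of the members, at 14.3 UMIs per thinned cell in KO and 11.1 in WT. Opalin had a mean of 1.71 in KO and 1.71 in WT. Mbp had a UMI in every thinned cell of both libraries, 732 in KO and 549 in WT, whereas Opalin had one in 63.7% of KO and 69.6% of WT cells. Between the 5th and the 95th percentile of unthinned cells, Mal ranged from 2618 to 15034 CPM in KO and from 1838 to 9638 CPM in WT.

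Mal and Opalin varied together over thinned cells, with a Pearson correlation of 0.45 in KO and 0.40 in WT, and Mal and Cldn11 had 0.35 in KO and 0.32 in WT. Opalin and Ermn had -0.11 in both libraries. Mbp was nearly uncorrelated with Mal, at -0.03 in KO and -0.05 in WT. Cells of 1 library share its pool and its preparation, so these values describe 732 KO and 549 WT cells and carry no test.

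Outside the lineage the members were near a common low floor, with a few genes well above it in particular cell types. In the 11 other classes with at least 20 cells in both libraries, the median member stood at 0.388% to 1.16% of its mature level in KO and at 0.305% to 2.32% in WT. Transcripts that leak from broken cells can be captured in any droplet, and 1 source of such free RNA would keep its genes in 1 ratio in every cell type of a library. Whether free RNA here had the ratios of mature cells was not tested. In barcodes that the filter removed, Mbp stood at 4.92% of its mature level in KO and 6.24% in WT. The median member stood there at 2.48% in KO and 3.62% in WT. The filter also removes barcodes with a mitochondrial share above 20%, so damaged cells can be among them. How much of these UMIs was free RNA was not tested. In astrocyte-like cells, 4337 in KO and 2486 in WT, Mal stood at 0.342% of its mature level in KO and 0.503% in WT. In the same cells Mag stood at 0.370% in KO and 0.750% in WT, and Mbp at 0.714% in KO and 1.15% in WT. A UMI of Mbp was found in 23.7% of KO and 33.5% of WT astrocyte-like cells, at medians of 9011 UMIs in KO and 10765 UMIs in WT.

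Cnp departed from this floor in astrocyte-like cells, at 142 CPM in KO and 121 CPM in WT, or 3.38% and 3.30% of its mature level. It made up 52.9% of member UMIs there in KO and 40.0% in WT, against 13.8% in KO and 13.9% in WT mature oligodendrocyte-like cells. A Cnp UMI was found in 61.3% of KO and 59.1% of WT astrocyte-like cells, and in 23.6% and 19.5% after thinning to 2000 UMIs. No single cell held more than 0.50% of the Cnp UMIs. With every cell carrying a mature oligodendrocyte marker left out, which left 1831 KO and 845 WT cells, Cnp in astrocyte-like cells was at 3.33% of its mature level in KO and 2.94% in WT. Cnp was also at 4.60% in KO and 6.76% in WT in B cell-like cells, and at 3.68% in KO and 4.29% in WT in ependymal-like cells.

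Mal departed in endothelial-like cells, at 604 CPM in KO and 392 CPM in WT, or 7.98% and 6.90% of its mature level. It made up 62.9% of member UMIs there in KO and 60.5% in WT. A Mal UMI was found in 66.0% of KO and 57.8% of WT endothelial-like cells, against 18.8% in KO and 20.1% in WT astrocyte-like cells, although endothelial-like cells were shallower, with medians of 2633 UMIs in KO and 2868 UMIs in WT. With cells carrying a mature oligodendrocyte marker left out, Mal stood at 7.94% in KO and 6.27% in WT. In KO the same class showed Mbp at 166 CPM, but 1 cell held 74.4% of those UMIs, and without it Mbp stood at 42.6 CPM in KO, against 50.1 CPM in WT without its highest cell.

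Cldn11 departed in fibroblast-like cells, at 399 CPM in KO and 622 CPM in WT, or 11.8% and 22.5% of its mature level. Claudin 11 is also a junction protein of the arachnoid barrier that surrounds the brain. A Cldn11 UMI was found in 67.2% of the 64 KO cells and in 84.6% of the 26 WT cells. In WT, 1 cell held 22.6% of those UMIs, and without it the level was 18.6% of the mature one. With cells carrying a mature oligodendrocyte marker left out it was 11.6% in KO and 12.5% in WT. Other members were low in fibroblast-like cells, as with Mag at 0.277% in KO and 0.229% in WT.

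**Figure D4:**
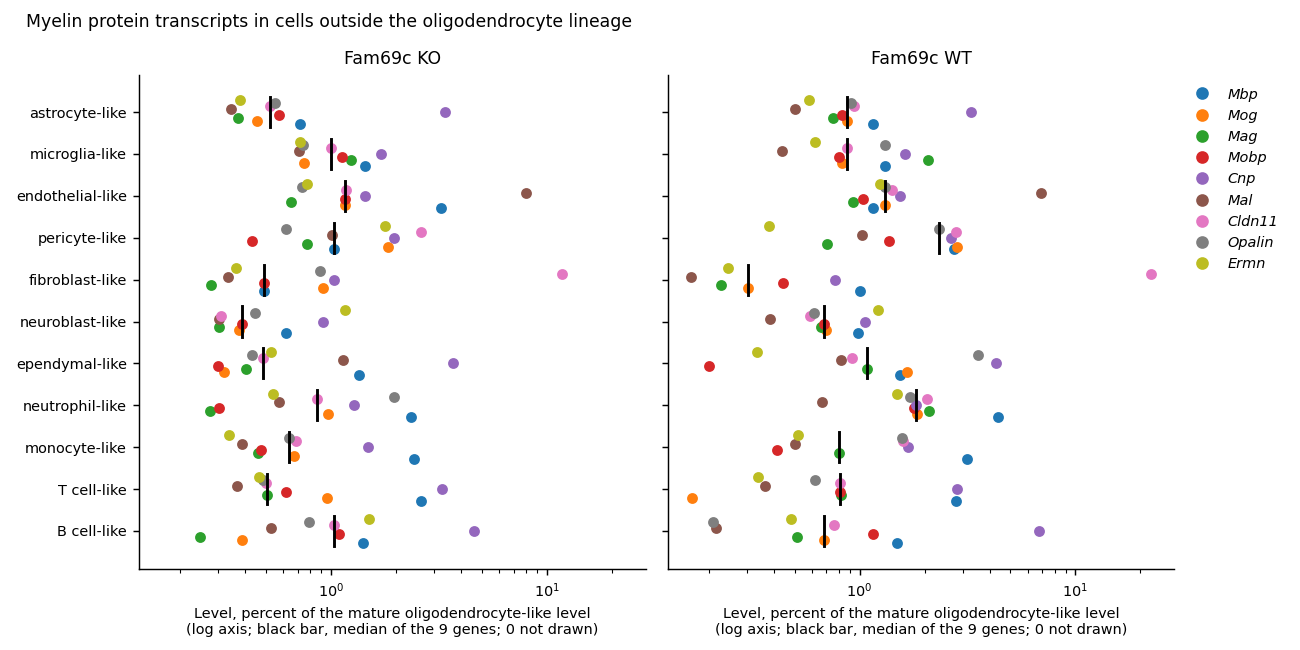
Level of each myelin protein gene (log axis) as a percent of its mature oligodendrocyte-like level in 11 other classes of the KO library (left) and the WT library (right), with a black bar at the median of the 9 genes; levels of 0 are not drawn. Cnp in astrocyte-like cells (3.38% in KO and 3.30% in WT), Mal in endothelial-like cells (7.98% in KO and 6.90% in WT) and Cldn11 in fibroblast-like cells (11.8% in KO and 22.5% in WT) lie apart from the other genes of their class.

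Mbp was higher in some blood cell classes than in others. In T cell-like cells Mbp stood at 2.60% of its mature level in KO and 2.81% in WT. The highest member there was another one, at 3.28% in KO and 2.83% in WT. Mbp stood at 2.42% in KO and 3.14% in WT monocyte-like cells, and at 2.34% in KO and 4.40% in WT neutrophil-like cells. It was the highest member in both of these classes. In B cell-like cells it stood at 72.1 CPM in KO and 73.7 CPM in WT, near its 73.3 CPM in KO and 64.9 CPM in WT microglia-like cells, whereas T cell-like cells had 134 CPM in KO and 140 CPM in WT. A Mbp UMI was found in 71.4% of monocyte-like cells in both libraries. The Mbp locus also gives rise to golli transcripts, which are known in immune cells, and counts per gene do not separate them. Ermn stood at 1.16% in KO and 1.22% in WT neuroblast-like cells, where Mal was at 0.301% in KO and 0.384% in WT. Mag stood at 1.24% in KO and 2.09% in WT microglia-like cells, the resident macrophages of the brain. The median member stood at 0.999% in KO and 0.875% in WT there. Mag was the highest member of that class in WT only. In KO Mbp was higher, at 1.43%, and the highest member stood at 1.71%. A Mag UMI was found in 15.5% of KO and 26.7% of WT cells of that class.

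**Figure D5:**
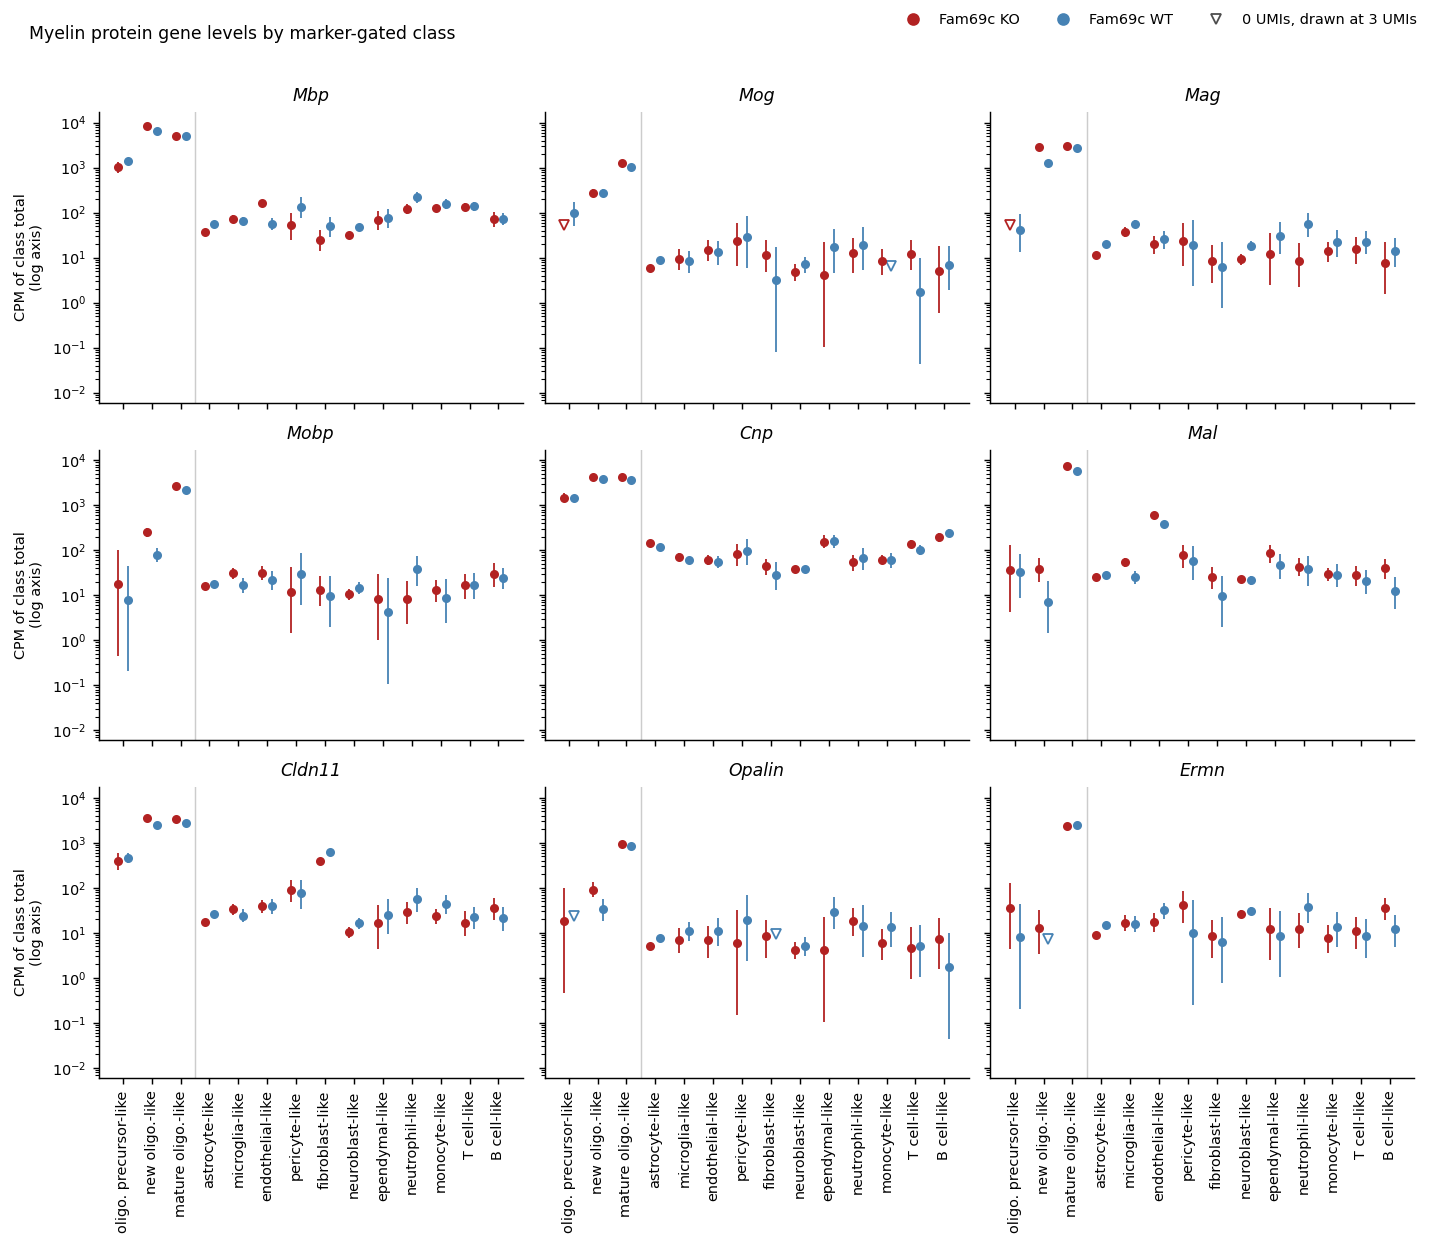
CPM (log axis) of each myelin protein gene in 14 marker-gated classes, oligodendrocyte stages left of the grey line, with KO in red and WT in blue, 95% counting intervals, and open triangles where a class had 0 UMIs. Each gene is highest in newly formed or mature oligodendrocyte-like cells, and Mal in endothelial-like cells (604 CPM in KO and 392 CPM in WT) and Cldn11 in fibroblast-like cells (399 CPM in KO and 622 CPM in WT) stand above the other classes outside the lineage.

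In astrocyte-like cells the median member stood at 0.518% of its mature level in KO and 0.878% in WT. Without cells carrying a mature oligodendrocyte marker the medians were closer, at 0.560% in KO and 0.696% in WT. In all astrocyte-like cells 6 of the 9 members (Mbp, Mog, Mag, Cldn11, Opalin and Ermn) were more than 20% lower in KO, against 26% of 12331 genes, and 0 were more than 25% higher, against 13.6%, although 8 of the 9 were higher in KO mature cells. The ratios of KO over WT were 0.641 for Mbp, 0.547 for Mag and 0.593 for Ermn, while Cnp had 1.18. Mature oligodendrocyte-like cells were 10.2% of kept KO cells and 11.5% of kept WT cells, and the share of free RNA in each droplet was not tested. Cells that carried markers of more than 1 class, 630 in KO and 792 in WT, were set aside, with medians of 11586 UMIs in KO and 2077.5 UMIs in WT. Of these, 191 in KO and 284 in WT had 3 or more mature oligodendrocyte markers. Over all the cells set aside, members stood at 19.7% to 23.3% of their mature level in KO and at 14.3% to 22.9% in WT.

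Among the genes most like the members in pattern were Jakmip3, Ly6g6f, Prima1 and Qdpr. Their Pearson correlations with the mean of the members were 0.959, 0.958, 0.957 and 0.949 on the log2(CPM + 1) scale. They were taken over 25 class and library values that share 2 libraries. Only the 4933 genes that passed a minimum of 500 UMIs were ranked, so this was no search over all 32285 genes. Qdpr, which encodes a pteridine reductase, stood at 269 CPM in KO and 146 CPM in WT newly formed cells, and at 2121 CPM in KO and 2411 CPM in WT mature cells.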

How the data were processed

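Libraries came from the Chromium Single Cell 3' v3.1 kit and had 13 or 12 indexing cycles, not assigned to a library, per the labels' protocols. The deposited matrices hold unnormalized UMI counts by gene and by barcode, made by the authors with Cell Ranger 4.0.0 on the mm10 build, per the submitters' processing notes, which also list Seurat 3.0 and R 4.0.3. No deposited annotation of cells was used. Counts come from 3' ends and are not divided by length, so levels are compared within a gene.

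Cells were filtered and gated with Python 3.11.15, numpy 2.4.6, scipy 1.17.1 and pandas 2.3.3. A cell joined the class with the highest share of its markers detected, given at least 3 of them, and was set aside where a second, unrelated class reached over 0.5 of that share; 122 KO and 214 WT cells reached no class. UMIs were summed per class and library, and levels are CPM of that sum. Genes with at least 100 UMIs over both groups of a comparison were called where more than 25% higher, or lower by the same fold (20%). Intervals are exact Poisson, Clopper-Pearson or conditional binomial. Scrublet's automatic threshold (scanpy 1.11.5) marked 4 KO and 0 WT barcodes and was taken as failed; removing the highest 569 KO and 298 WT scores was an alternative. Ratios and gates were tested on simulated data. Members, marker lists and pathway lists were chosen with earlier results of these data known, and the share of 0.5, the Bmp4 split and the 10-fold threshold were set after seeing the data. Named genes were the members, list genes past that fold (at most 4 per list), the 2 most abundant per list and the 5 most alike in pattern. One gene that this rule names is not reported here.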

Additional observations from a re-analysis of the deposited data

Results flagged for a closer look

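Opalin moved in opposite directions between the libraries in the 2 groups of mature oligodendrocyte-like cells. Its log2 ratio of KO over WT was -0.62 in cells with a Klk6 UMI, from 205 UMIs in KO and 292 UMIs in WT, and 0.20 in cells without one. After thinning each cell to 2000 UMIs, Opalin stood at 989 CPM in KO and 957 CPM in WT cells without Klk6, and at 147 CPM in KO and 240 CPM in WT cells with it, so that the upward difference was close to 0. Without the highest cell of each library the value in cells with Klk6 was -0.57. The difference between the groups was not tested, since each genotype has 1 library. A Klk6 UMI was found at different depths in the libraries, with medians of 15349 UMIs in KO and 19762 UMIs in WT, and the part of that in the difference was not tested.

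Myelin transcripts were also present in barcodes that the filter on cells removed, which the comparisons left out other than in the alternative with no filter on cells. The members made up 0.0886% of UMIs in removed KO barcodes and 0.104% in removed WT barcodes, against 0.0269% in KO and 0.0302% in WT astrocyte-like cells. Mbp stood highest there relative to mature cells, at 4.92% of its mature level in KO and 6.24% in WT, whereas the median member stood at 2.48% in KO and 3.62% in WT.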

How the results depend on the processing

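The median log2 ratio of KO over WT over the members in mature cells was 0.203, and it was 0.266 under trimmed-mean scaling, 0.180 with each cell weighed the same, 0.175 with cells carrying markers of a second class kept and 0.181 with the same share of Klk6-detected cells. The count of members more than 25% higher in KO was 2, became 4 under trimmed-mean scaling and was 0 at 1.5-fold. The median member level in astrocyte-like cells, 0.518% of the mature level in KO and 0.878% in WT, became 0.574% and 1.01% after thinning, 0.560% and 0.696% without cells carrying a mature oligodendrocyte marker, and 1.38% and 1.76% with second-class cells kept. In newly formed cells the WT median, 26.7%, became 19.7% with each cell weighed the same. The median log2 ratio of Klk6-detected over not detected cells was -0.124 in KO and became -0.010 after thinning and -0.0033 with each cell weighed the same, and in WT it was -0.021 and became 0.096 with each cell weighed the same. The other 37 recomputed medians and counts stayed within their counting interval or 1.5 times the count. Of 301 values of single genes, 106 moved beyond their counting interval, and no called ratio changed sign. The cause of these moves was not tested. No paired analysis was possible because each genotype has 1 library and the labels give no replicate numbers, and for the same reason no replicate could be left out. Newly formed and precursor-like cells are few, and depth limits what can be said of Mal, Ermn and Opalin there.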
